A study of Mus musculus with 6 samples.

Results

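Autophagy is the route by which a cell encloses part of its own cytoplasm in a double membrane and delivers it to the lysosome. The 10 genes described here are core or regulatory genes of that route and of mitophagy, its form directed at mitochondria. They were taken by name (Ulk1, Ulk2, Becn1, Atg14, Map1lc3a, Map1lc3b, Gabarapl1, Sqstm1, Bnip3 and Tfeb) from the 28880 genes of a liver RNA sequencing table, in which each was found once. Livers came from male, wild type C57BL/6J mice aged 6 to 8 weeks. The 3 ethanol-exposed mice went without food for 12 h, were then gavaged once with ethanol (6 g/kg, as a 50% v/v solution), and their livers were taken 24 h later, as a model of a single binge. The 3 control mice were given no ethanol. Whether they were also fasted is not given in the sources used here, so ethanol and the fast before it cannot be told apart.

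The pathway starts with the ULK kinase complex, which nutrient-sensing kinases hold in check or switch on. A lipid kinase complex built on Beclin 1 and ATG14 then marks the membrane, and proteins of the ATG8 family (LC3 and GABARAP) are attached to the growing membrane, where cargo receptors such as p62 bind them. In liver, autophagy supplies amino acids and lipids during fasting and clears damaged mitochondria and fat droplets. Autophagy is largely controlled at the level of protein activity and turnover, which RNA levels do not measure.

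Between 60514417 and 74210869 reads per library were counted on genes. The first principal component (65.2% of the variance) separated the groups, and on the second (16.7%) ethanol replicate 3 (-88.7) lay far from its group mates (33.4 and 51.7). P-values weigh a difference between the groups against the variation between these mice. Levels are given as CPM, which are counts relative to the library size after scaling with edgeR's TMM factors, and, for comparing genes with each other, as the deposited FPKM, which also take the length of the transcript into account. The TMM factors ranged from 0.7675 to 0.8358 with ethanol and from 1.258 to 1.265 without. Over all genes the log2 fold changes had a median of -0.04, and of -0.71 with library size alone. A fold change is therefore relative to the bulk of genes, and FPKM, which carry no such factor, can point the other way for a gene that differs little. The 8 hepatocyte markers, none of them at 0, summed to 126109 to 130750 CPM with ethanol and 67660 to 79005 CPM without, and 2 of them were called higher. All marker sums carry the TMM factors, which raise CPM with ethanol and lower CPM without. With library size alone the hepatocyte sums would lie closer together. The 8 Kupffer cell markers summed to 99.1 to 134 and 121 to 131 CPM, with none at 0. Summed levels in ethanol-exposed mice lay above those of control mice for neutrophils (5 markers, 1.77 to 10.8 against 0.171 to 0.33 CPM) and erythroid cells (4 markers, 403 to 600.0 against 142 to 175 CPM), and below them for T cells (4 markers, 0.556 to 0.715 against 1.5 to 2.25 CPM) and pancreas (3 markers, 9.32 to 11 against 17.2 to 21.6 CPM). The sum of the nuclear RNAs Malat1 and Neat1 was also lower (159 to 297 against 384 to 526 CPM), though 1 of them was called higher and 1 lower. The sums of endothelial, stellate, bile duct and B cell markers overlapped. Their part in the results was not tested. In bulk tissue, fewer cells of a type and less RNA per cell cannot be told apart.

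To characterize the response of these genes, edgeR's quasi-likelihood test (two-sided) was fitted to all 16717 genes with sufficient counts. A differentially expressed gene (DEG) is one whose p, adjusted after Benjamini and Hochberg, is under 0.05 and whose log2 fold change exceeds 1 in either direction. All 10 genes were tested. Bnip3, Ulk1, Map1lc3b, Map1lc3a and Atg14 were higher in ethanol-exposed mice and Ulk2 was lower, so that 6 of 10 were DEGs, where 24.2% of all genes tested were (10.4% higher and 13.8% lower). By the adjusted p alone 8 of the 10 passed (6 higher, 2 lower), where 43.0% of all genes did. Becn1 and Tfeb passed it but not the fold threshold, and Gabarapl1 and Sqstm1 did not pass it. The median log2 fold change of the 10 genes was 0.73, beside -0.04 for all genes. In 8 of the 10 genes the CPM of the groups did not overlap, which held for 59.0% of all genes. Bnip3 is the only member that was a DEG under every alternative run. With library size alone 3 members were DEGs (37.3% of all genes), Bnip3 higher and Ulk2 and Tfeb lower. With limma on log2(FPKM + 1), 2 of the 9 members tested were (21.0% of all genes), Bnip3 higher and Ulk2 lower.

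**Figure D1:**
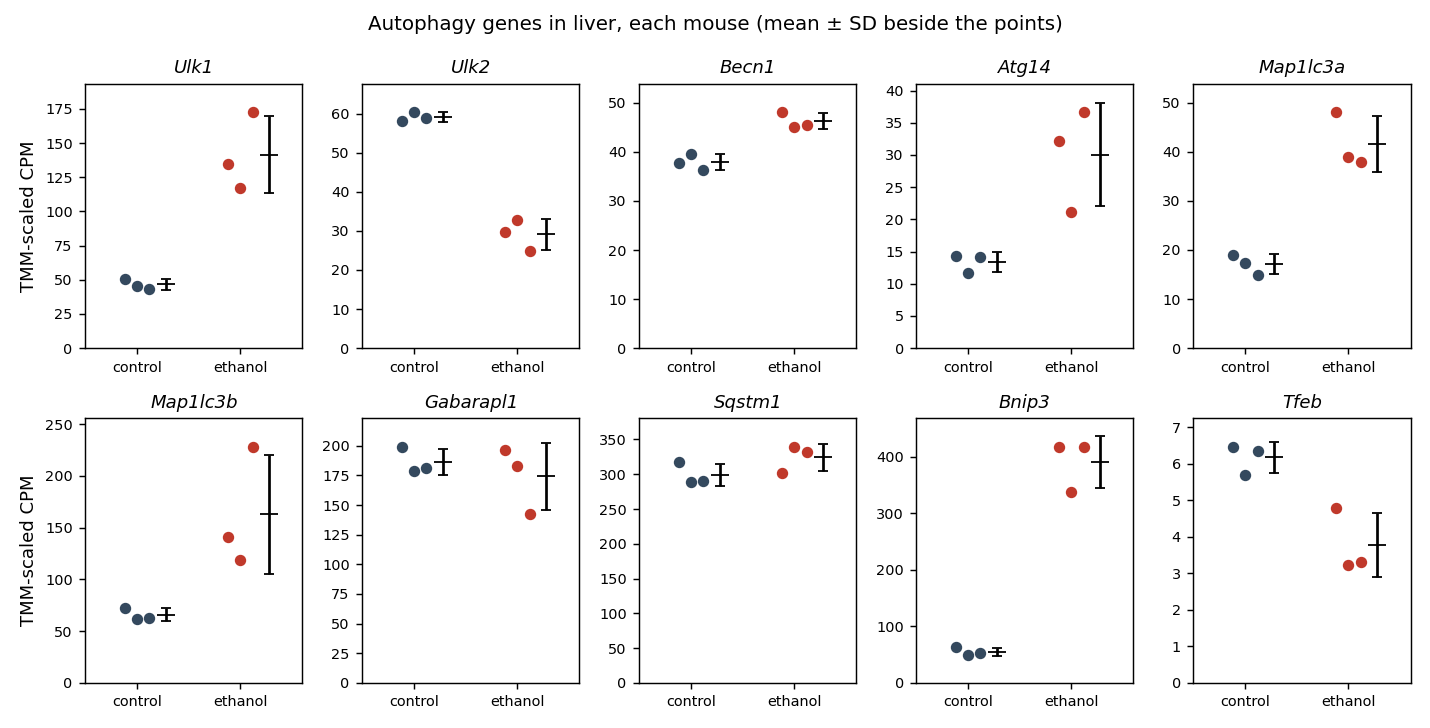
TMM-scaled CPM of the 10 genes in each control (dark blue) and ethanol-exposed (red) mouse, with the mean and SD of 3 mice beside the points and every axis starting at 0. Bnip3 was at 49.2 to 62.6 CPM in control mice and 337 to 418 CPM in ethanol-exposed mice, while the points of Gabarapl1 and Sqstm1 overlap between the groups.

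**Figure D2:**
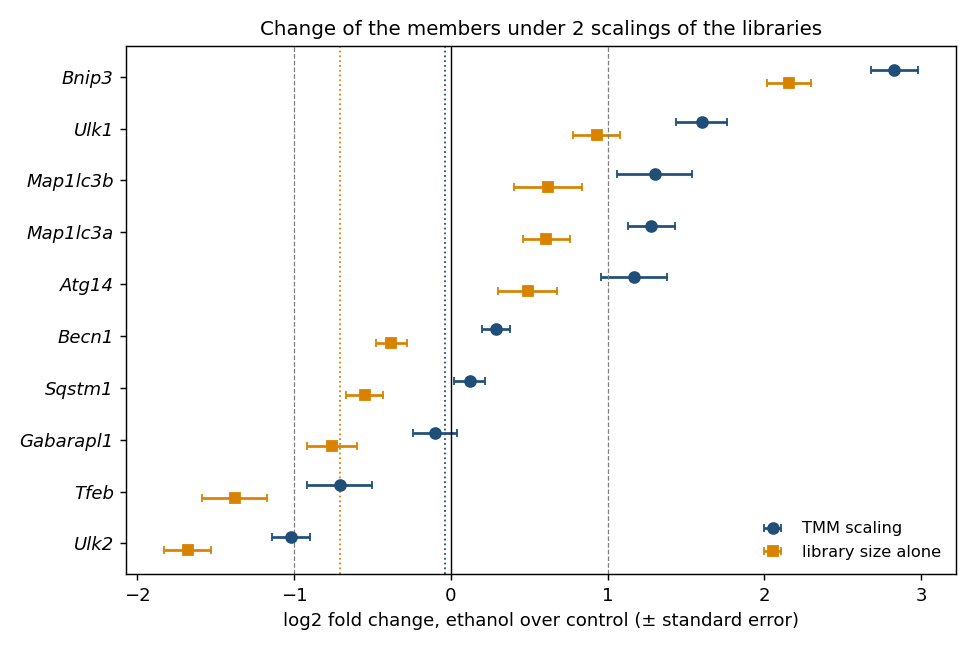
Log2 fold change of each gene with its standard error, under TMM scaling (circles) and with library size alone (squares). Dotted lines mark the median of all genes under each scaling (-0.04 and -0.71) and dashed lines the threshold of 1 in either direction. A scaling shifts all genes nearly alike, so the order of the genes is the same under both. Becn1 and Sqstm1 lie above 0 under TMM scaling and below 0 with library size alone.

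Bnip3 encodes a receptor in the outer mitochondrial membrane that binds LC3 and is a known target of hypoxia-inducible factor and FoxO. It had the largest change among the members. Bnip3 (ENSMUSG00000078566, chromosome 7, 138492565 to 138511248 in the table's coordinates) was at 62.6, 49.2 and 53.0 CPM in the control mice and at 417, 337 and 418 CPM in the ethanol-exposed mice. Every ethanol-exposed mouse was above every control mouse, with no mouse apart from its group. Its mean rose from 54.9 ± 6.94 to 391 ± 46.1 CPM (SD, n = 3), a 7.11-fold rise or a log2 fold change of 2.83 (standard error 0.15, edgeR adjusted p = 7.33e-05), above that of 97.5% of all genes tested. In FPKM it went from 28.6 to 127, from the third highest to the highest mean of the 10 genes. Its close relative Bnip3l (NIX) was at 45.9 to 49.2 CPM in control mice and 47.3 to 53.6 CPM in ethanol-exposed mice, and these ranges overlap. Its log2 fold change was 0.07 (edgeR adjusted p = 0.602), or -0.60 with library size alone. A ratio of related genes within a library does not depend on how libraries are scaled. The ratio of Bnip3 to Bnip3l in FPKM was 2.17, 1.82 and 1.93 in the control mice and 15, 12 and 13.3 in the ethanol-exposed mice, a difference of 2.77 on the log2 scale. Groups of 3 cannot give an exact permutation p below 0.10, which this difference had (two-sided, adjusted p = 0.114 over the 8 pairs compared).

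Ulk1 and Ulk2 encode the paralogous kinases at the head of the pathway, and they moved in opposite directions. Ulk1 (ENSMUSG00000029512, chromosome 5, 110932354 to 110957963) was at 50.9, 45.2 and 43.6 CPM in the control mice and at 135, 117 and 173 CPM in the ethanol-exposed mice. Ulk2 (ENSMUSG00000004798, chromosome 11, 61666475 to 61745899) was at 58.1, 60.5 and 58.9 CPM in the control mice and at 29.8, 32.7 and 24.9 CPM in the ethanol-exposed mice. For neither gene did the groups overlap, and ethanol replicate 3 had both the highest Ulk1 and the lowest Ulk2. Ulk1 rose 3.04-fold (log2 fold change 1.6, standard error 0.16, edgeR adjusted p = 0.000483), and with library size alone its change was 0.93. Ulk2 fell by 1.02 on the log2 scale (standard error 0.12, edgeR adjusted p = 0.000969), close to the threshold of 1, and its change was -1.68 with library size alone and -1.46 in limma on log2(FPKM + 1). Ulk2 was no longer a DEG without ethanol replicate 3 (-0.91) or with the trend with transcript length removed (-0.83), though its adjusted p stayed under 0.05. In the control mice the ratio of Ulk1 to Ulk2 in FPKM was 0.806, 0.689 and 0.682, and in the ethanol-exposed mice it was 4.15, 3.31 and 6.38. Ulk2 was thus the more abundant of the pair in all 3 control mice and Ulk1 in all 3 ethanol-exposed mice, a difference in the ratio of 2.62 on the log2 scale (exact permutation p = 0.10, adjusted p = 0.114).

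Promoter windows from RefSeq (GRCm38.p6, from 250 bases before to 50 after the start of the gene) are shown for Bnip3 and Atg14, which rose, and for the diverging Ulk1 and Ulk2. They are written 5′ to 3′ on the gene's strand, with motif matches in capitals.
Bnip3, chr7:138909457-138909756, minus strand: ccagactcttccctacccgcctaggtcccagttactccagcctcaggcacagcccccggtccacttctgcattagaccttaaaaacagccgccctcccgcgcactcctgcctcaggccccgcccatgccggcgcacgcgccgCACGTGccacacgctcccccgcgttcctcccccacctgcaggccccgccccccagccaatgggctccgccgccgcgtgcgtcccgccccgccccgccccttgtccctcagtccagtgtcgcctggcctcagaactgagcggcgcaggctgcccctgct
Atg14, chr14:47568385-47568684, minus strand: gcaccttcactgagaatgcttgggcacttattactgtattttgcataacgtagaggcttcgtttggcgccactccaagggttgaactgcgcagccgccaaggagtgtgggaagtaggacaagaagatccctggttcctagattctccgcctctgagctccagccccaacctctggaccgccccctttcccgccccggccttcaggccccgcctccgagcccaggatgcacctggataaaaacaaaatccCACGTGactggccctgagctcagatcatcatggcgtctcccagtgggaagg
Ulk1, chr5:110810032-110810331, minus strand: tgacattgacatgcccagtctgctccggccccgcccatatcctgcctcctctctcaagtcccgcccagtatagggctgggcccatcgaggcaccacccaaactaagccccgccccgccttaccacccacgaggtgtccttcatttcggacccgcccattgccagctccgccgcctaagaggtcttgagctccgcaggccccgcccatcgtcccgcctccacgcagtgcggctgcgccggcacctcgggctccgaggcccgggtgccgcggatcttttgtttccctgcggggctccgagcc
Ulk2, chr11:61855043-61855342, minus strand: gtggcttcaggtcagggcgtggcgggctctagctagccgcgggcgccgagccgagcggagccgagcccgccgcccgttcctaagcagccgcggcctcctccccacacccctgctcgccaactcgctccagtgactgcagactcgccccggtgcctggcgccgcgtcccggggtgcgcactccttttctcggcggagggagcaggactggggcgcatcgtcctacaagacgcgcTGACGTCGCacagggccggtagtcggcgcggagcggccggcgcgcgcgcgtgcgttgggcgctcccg
Windows were found for 8 of the 10 genes, 10 in all since Tfeb has 3. They were searched on both strands for CACGTG (the E-box), TCACGTGA (its extended form in CLEAR elements, which TFEB binds), GTAAACA (bound by FoxO factors), ACGTG (the core of hypoxia response elements) and TGACNNNGC (the core of antioxidant response elements). The E-box was found in Bnip3, 108 bases before the start, and in Atg14, 1 base before it. Of 32851 promoter windows, 7.15% hold it. Each E-box also holds ACGTG on both strands, which is in 19.6% of windows, and no other ACGTG was found in these 10 windows. TGACNNNGC was found in Ulk2, 17 bases before the start, and in Map1lc3b, 4 bases after it, and is in 12.4% of all windows. The Ulk1 window holds none of these motifs. No window of the 10 holds TCACGTGA or GTAAACA, which are in 0.974% and 3.65% of all windows.

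Becn1 and Atg14 encode partners in the lipid kinase complex that marks the site of the new membrane, Atg14 being the subunit particular to autophagy. Atg14 (ENSMUSG00000037526, chromosome 14, 47778350 to 47808106) was at 14.3, 11.6 and 14.2 CPM in the control mice and at 32.2, 21.1 and 36.7 CPM in the ethanol-exposed mice. The groups did not overlap, and ethanol replicate 2 was the lowest of the exposed mice. Atg14 rose 2.24-fold (log2 fold change 1.17, standard error 0.21, edgeR adjusted p = 0.00478). In FPKM the groups overlapped, and with library size alone the change was 0.49 (edgeR adjusted p = 0.0637). Becn1 (ENSMUSG00000035086, chromosome 11, 101176778 to 101193112) was at 37.7, 39.6 and 36.3 CPM in the control mice and at 48.1, 45.2 and 45.5 CPM in the ethanol-exposed mice. The log2 fold change of Becn1 was 0.29 (edgeR adjusted p = 0.0412), and -0.38 with library size alone (adjusted p = 0.0149), so its direction follows the scaling. With each library left out in turn, the adjusted p of Becn1 was under 0.05 only without ethanol replicate 3 (0.0146), and it was between 0.0718 and 0.161 without any other. It was 0.14 with upper quartile scaling and 0.0995 with no filter on low counts, and 0.105 in DESeq2. The ratio of Becn1 to Atg14 in FPKM was 1.61, 2.08 and 1.57 in the control mice and 0.915, 1.31 and 0.759 in the ethanol-exposed mice, lower in all 3 (difference -0.85 on the log2 scale, exact permutation p = 0.10, adjusted p = 0.114).

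Members of the ATG8 family are the small ubiquitin-like proteins that are joined to lipid on the autophagosome membrane, and those examined here did not move together. Map1lc3a (ENSMUSG00000027602, chromosome 2, 155118217 to 155119993) was at 19.0, 17.4 and 14.9 CPM in the control mice and at 48.1, 38.9 and 37.8 CPM in the ethanol-exposed mice. It rose 2.43-fold (log2 fold change 1.28, standard error 0.15, edgeR adjusted p = 0.000772). Map1lc3b (ENSMUSG00000031812, chromosome 8, 122317100 to 122325499), whose protein LC3B is the usual marker of autophagosomes, was at 72.7, 62.1 and 63.1 CPM in the control mice and at 141, 119 and 228 CPM in the ethanol-exposed mice. The groups did not overlap, but ethanol replicate 3 stood well above the other exposed mice. Map1lc3b rose 2.47-fold (log2 fold change 1.30, standard error 0.24, edgeR adjusted p = 0.00501), and without ethanol replicate 3 its log2 fold change was 0.99, just under the threshold. With library size alone the changes were 0.61 for Map1lc3a and 0.62 for Map1lc3b.

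Gabarapl1, the GABARAP-like member and a known FoxO target, was the most abundant of the 3 ATG8 genes among the members in control mice by FPKM. Gabarapl1 (ENSMUSG00000030161, chromosome 6, 129510123 to 129519309) was at 199, 179 and 181 CPM in the control mice and at 197, 183 and 142 CPM in the ethanol-exposed mice. The groups overlapped, ethanol replicate 3 being the lowest. Its log2 fold change was -0.10 (standard error 0.14, edgeR adjusted p = 0.597), or 0.04 without ethanol replicate 3, and with library size alone it was -0.76 (adjusted p = 0.00508). In deposited FPKM it was 117, 105 and 106 in the control mice and 70.8, 71.0 and 50.7 in the ethanol-exposed mice, without overlap. The ratio of Gabarapl1 to Gabarap, its close relative, was 1.49, 1.32 and 1.32 in the control mice and 0.963, 0.968 and 0.759 in the ethanol-exposed mice. That to Gabarapl2 was 6.05, 5.18 and 5.12 and then 4.05, 3.89 and 3.34. Both were lower in all 3 ethanol-exposed mice, by 0.63 and 0.54 on the log2 scale (exact permutation p = 0.10 and adjusted p = 0.114 for each). The ratio of Map1lc3a to Map1lc3b differed by 0.03 between the groups (exact permutation p = 1.0), with 1.66, 1.78 and 1.5 in the control mice and 2.17, 2.08 and 1.06 in the ethanol-exposed mice. Without ethanol replicate 3 that difference was 0.37.

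Levels per length depend on the length used. The FPKM of Map1lc3b imply a length of 8.04 kb, where its longest coding transcript in GENCODE M21 has 2.63 kb and the union of its exons 7.52 kb. For Map1lc3a these are 1.26, 1.11 and 1.18 kb. By deposited FPKM, Map1lc3a (mean 17.1 in control mice) lay above Map1lc3b (10.3), and rescaled to the longest coding transcript it lay below it (19.4 against 31.6), so the order of these paralogs is not settled by the table. Across the 10 genes in control mice, Gabarapl1 (109) and Sqstm1 (105) had the highest mean FPKM, and their ranges overlapped. Bnip3 (28.6), Map1lc3a, Ulk2 (11.7), Map1lc3b, Ulk1 (8.46), Becn1 (6.31), Atg14 (3.64) and Tfeb (1.28) followed. Rescaled to the longest coding transcript, Map1lc3b also lay above Ulk2 (13), and Sqstm1 (141) above Gabarapl1 (129). The order in ethanol-exposed mice is given by deposited FPKM only, and it too depends on the length used. In these mice it was Bnip3 (127), Sqstm1 (71.6), Gabarapl1 (64.2), Map1lc3a (26.0), Ulk1 (16.1), Map1lc3b (15.9), Atg14 (5.09), Becn1 (4.84), Ulk2 (3.62) and Tfeb (0.486). There the ranges overlapped between Sqstm1 and Gabarapl1, between Ulk1 and Map1lc3b, and between Atg14 and both Becn1 and Ulk2.

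Sqstm1 encodes p62, a cargo receptor that binds ubiquitin and LC3, is itself degraded by autophagy and is induced by NRF2. Sqstm1 (ENSMUSG00000015837, chromosome 11, 50090193 to 50101654) was at 318, 289 and 290.2 CPM in the control mice and at 302, 339.6 and 331 CPM in the ethanol-exposed mice. Ethanol replicate 1 lay below the highest control mouse, so the groups overlapped. Its log2 fold change was 0.12 (standard error 0.10, edgeR adjusted p = 0.398), and -0.55 with library size alone (adjusted p = 0.00660). Relative to the median of all genes it was 0.16 under each of the 4 scalings compared. A scaling shifts all genes nearly alike, so this sameness is no test of the result. Nbr1, a related receptor, was at 159 to 172 CPM in control mice and 99.8 to 126 CPM in ethanol-exposed mice, a log2 fold change of -0.55 (edgeR adjusted p = 0.00859) that was short of the threshold, and with library size alone it was a DEG (-1.22, adjusted p = 0.000299). The ratio of Sqstm1 to Nbr1 in FPKM was 3.78, 3.74 and 3.67 in the control mice and 6.19, 6.24 and 5.40 in the ethanol-exposed mice (difference 0.67 on the log2 scale, exact permutation p = 0.10, adjusted p = 0.114).

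Tfeb encodes the transcription factor that drives lysosomal and autophagy genes and is controlled mainly by its entry into the nucleus. It had the lowest level of the 10 genes. Tfeb (ENSMUSG00000023990, chromosome 17, 48047955 to 48103344) had 434 to 607 counts in the control mice and 180 to 275 in the ethanol-exposed mice. These were 6.47, 5.70 and 6.36 CPM in the control mice and 4.78, 3.24 and 3.30 CPM in the ethanol-exposed mice, without overlap. The log2 fold change was -0.71 (standard error 0.21, edgeR adjusted p = 0.0306), short of the threshold, and -1.38 with library size alone (adjusted p = 0.00130). With each library left out in turn, the adjusted p of Tfeb stayed under 0.05 without ethanol replicate 1 (0.0153) or 3 (0.0367), and it was between 0.0698 and 0.0976 without ethanol replicate 2 or any control mouse. With the length trend removed it was 0.0907 (log2 fold change -0.52). The ratio of Tfeb to its paralog Tfe3 was 0.584, 0.450 and 0.592 in the control mice and 0.405, 0.226 and 0.269 in the ethanol-exposed mice (difference -0.89 on the log2 scale, exact permutation p = 0.10, adjusted p = 0.114). Tfe3 itself had a log2 fold change of 0.15 (edgeR adjusted p = 0.371), or -0.51 with library size alone.

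**Figure D3:**
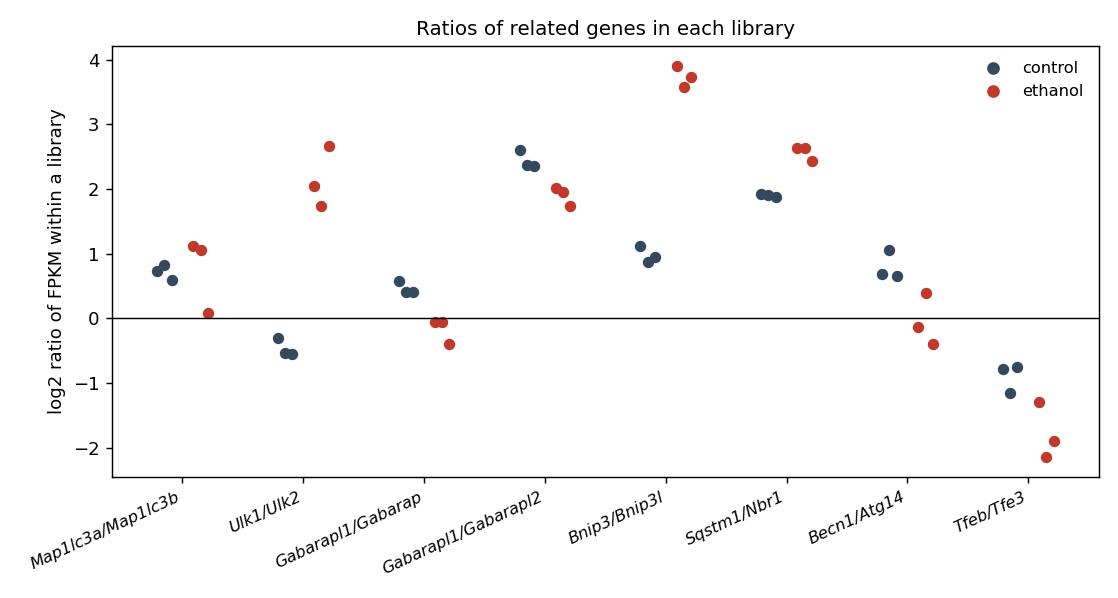
Log2 ratio of the FPKM of 8 pairs of related genes in each control (dark blue) and ethanol-exposed (red) library. The groups are apart in 7 pairs, widest in Bnip3/Bnip3l (difference 2.77) and Ulk1/Ulk2 (2.62), and overlap in Map1lc3a/Map1lc3b.

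Some of these genes share genomic positions with others, and the strand was not stated for the counting. Map1lc3b overlaps Zcchc14 (1611 to 2323 counts) on the opposite strand over 58 bases. Gabarapl1 overlaps Gm44243 on the same strand (34 to 340 counts) and Sqstm1 overlaps Mrnip on the opposite strand (60 to 277 counts). The neighbours of Becn1, Bnip3 and Atg14 had at most 23 counts.

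To place the members in the pathway, 83 further autophagy genes were grouped with them by role into 11 lists, 93 genes in all. Of the 93, all were tested, 17 were called higher and 9 lower (28%), with a median log2 fold change of 0.27. Without the 10 members, 12 of 83 were higher and 8 lower (24.1%, beside 24.2% of all genes). With library size alone the 93 gave 8 higher and 24 lower, where 37.3% of all genes were called. The median relative to all genes was 0.31, against 0.32 under TMM scaling, since a scaling shifts all genes nearly alike.

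**Figure D4:**
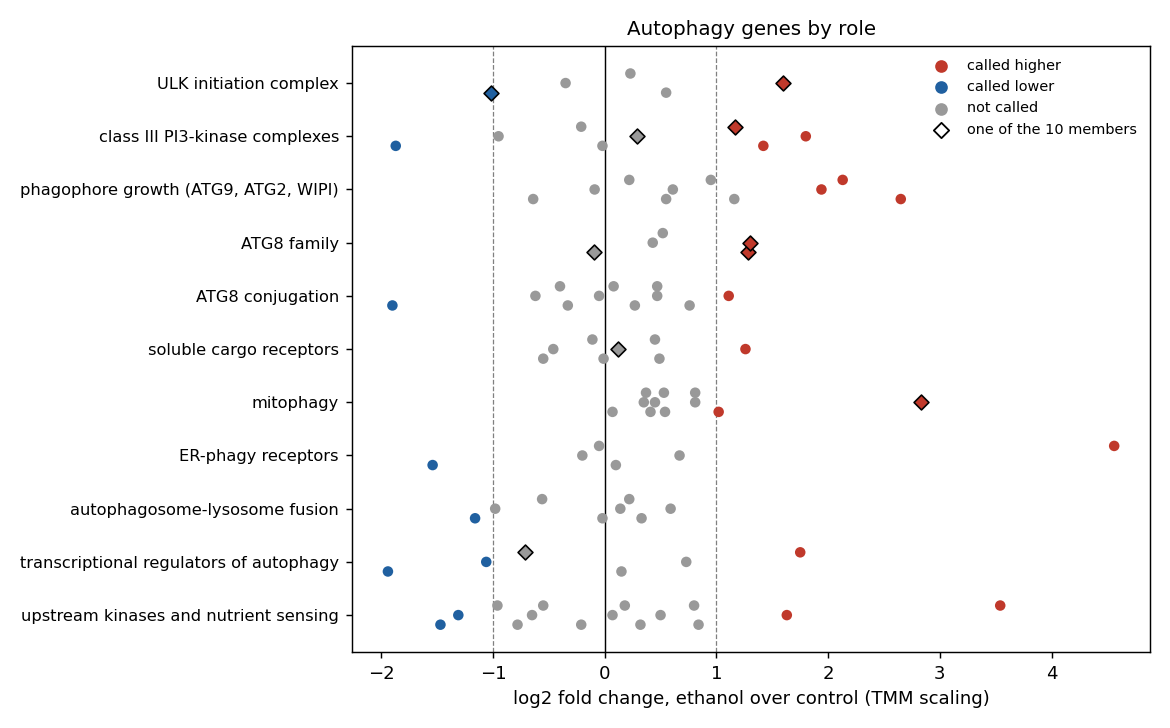
Log2 fold change (TMM scaling) of the 93 autophagy genes by role, red where called higher, blue where called lower and grey where not called, with the 10 members as outlined diamonds. Dashed lines mark the threshold of 1 on both sides, and the genes farthest to the right are Retreg1 (4.56), Ddit4 (3.54) and Bnip3 (2.83).

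In the ULK complex, Ulk1 and Ulk2 were the DEGs among 5 genes. The scaffold subunit Atg13 had a log2 fold change of 0.55 (edgeR adjusted p = 0.0121) that became -0.12 with library size alone, and Atg101 had -0.35 (adjusted p = 0.10), or -1.01 with library size alone (adjusted p = 0.00269), where it was a DEG. Of the 8 genes of the lipid kinase complexes, 3 were higher and 1 lower. Nrbf2, a subunit of the ATG14 complex, rose from 18.6 ± 0.883 to 49.8 ± 8.58 CPM (SD, n = 3, log2 fold change 1.42, edgeR adjusted p = 0.000549), and it was no DEG with library size alone (0.76) or in limma. Rubcn, which encodes Rubicon, an inhibitor of the complex, fell from 18.5 ± 0.410 to 5.08 ± 1.24 CPM, by 1.87 on the log2 scale (adjusted p = 0.000479). Fyttd1, which overlaps Rubcn on the opposite strand, had 1643 to 2417 counts, beside 251 to 1699 for Rubcn. Uvrag (log2 fold change 1.8, adjusted p = 0.00578), the partner of Beclin 1 in the other form of the complex, was at 84.0 to 91.7 CPM in ethanol replicates 1 and 2 and at 33.96 CPM in replicate 3, beside 18.7 to 21.4 CPM in control mice, and is named here after its values were seen. Uvrag was no DEG in limma, and its groups overlapped in FPKM.

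The genes for growth of the membrane held 3 DEGs among 10, all higher (10.4% of all genes were called higher and 24.2% in either direction), and Wipi1, Wdr45b and Atg2a were also called higher with library size alone. Wipi1, which reads the lipid mark, was at 7.60 to 8.62 CPM in control mice and 34.01 to 37.8 CPM in ethanol-exposed mice, a log2 fold change of 2.13 (edgeR adjusted p = 7.33e-05). Wdr45b, of the same family, was at 14.1 to 17.4 and 83.8 to 112 CPM, a log2 fold change of 2.65 (adjusted p = 7.81e-05). The remaining DEG was the lipid transfer protein gene Atg2a (1.94). In the ATG8 family, Gabarap (log2 fold change 0.52, adjusted p = 0.00446) and Gabarapl2 (0.43, adjusted p = 0.0124) were short of the threshold, and both turned negative with library size alone (-0.15 and -0.24).

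Among 11 genes of the conjugation machinery, 1 was higher and 1 lower. Atg12, the ubiquitin-like tag of ATG5, rose from 24.2 ± 0.430 to 52.2 ± 3.001 CPM (log2 fold change 1.11, edgeR adjusted p = 0.000286, or 0.44 with library size alone). Atg4c, a protease that processes ATG8 proteins, fell from 10.6 ± 0.800 to 2.83 ± 0.468 CPM, by 1.90 on the log2 scale (adjusted p = 0.000396). Among 8 soluble cargo receptors the DEG was Ncoa4, the receptor for ferritin, which rose from 81.1 ± 2.72 to 194 ± 28.5 CPM (log2 fold change 1.26, adjusted p = 0.00057, or 0.60 with library size alone). For Tax1bp1 the value was 0.45 (adjusted p = 0.00768), and -0.22 with library size alone.

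Of 11 mitophagy genes, Bnip3 and the kinase gene Tbk1 were DEGs. Tbk1 rose from 14.7 ± 1.49 to 29.7 ± 2.95 CPM (log2 fold change 1.02, edgeR adjusted p = 0.00118), and it was no longer a DEG without ethanol replicate 3, control replicate 2 or control replicate 3, with library size alone (0.34), with upper quartile scaling, with no filter on low counts, in DESeq2 or in limma. By the adjusted p alone, 8 of the 11 were higher and none lower under TMM scaling (21.5% of all genes were higher), but with library size alone 2 were higher and 2 lower. Under that scaling all genes had a median log2 fold change of -0.71. The share of all genes passing the adjusted p alone is not available for it, so these 2 counts have no background. Mul1, a mitochondrial ubiquitin ligase gene, was at 25.7 to 28.6 CPM in control mice and 40.9 to 53.5 CPM in ethanol-exposed mice (log2 fold change 0.81, adjusted p = 0.00275, or 0.13 with library size alone). Among receptors for autophagy of the endoplasmic reticulum, Retreg1 (FAM134B) rose from 37.1 ± 3.74 to 878 ± 162 CPM, a log2 fold change of 4.56 (adjusted p = 4.51e-05). This was the widest change of the 93 genes, and it was between 4.44 and 4.71 with each library left out. Atl3 fell by 1.54 (adjusted p = 0.000173).

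In fusion with the lysosome, 1 of 8 genes was a DEG. Snap29, a subunit of the SNARE complex of the autophagosome, fell from 20.0 ± 1.70 to 8.96 ± 1.81 CPM, by 1.16 on the log2 scale (edgeR adjusted p = 0.00199), and its partner Vamp8 had 0.59 (adjusted p = 0.00521), or -0.08 with library size alone. Pi4ka overlaps Snap29 on the opposite strand, with 1769 to 2880 counts beside 443 to 2049. Among 6 transcriptional regulators, Foxo1, an activator of autophagy genes, rose from 23.4 ± 3.72 to 78.8 ± 8.53 CPM (log2 fold change 1.75, adjusted p = 0.000263). In limma on log2(FPKM + 1), Foxo1 was no DEG, nor were Atg12 and Ncoa4. Zkscan3, a repressor of autophagy genes, fell from 67.8 ± 3.48 to 32.5 ± 2.88 CPM, by 1.06 on the log2 scale (adjusted p = 0.000528, or a fall of 0.99 without ethanol replicate 2 and of 0.87 with the length trend removed, where it was no DEG). Mitf, a paralog of Tfeb, was the other DEG of this list (-1.94), so that of the 3 paralogs Tfeb, Tfe3 and Mitf only Mitf was a DEG under TMM scaling. With library size alone Tfeb was one as well. The falls were larger with that scaling, with log2 fold changes of -2.54 for Rubcn, -2.56 for Atg4c, -2.21 for Atl3, -1.83 for Snap29, -1.73 for Zkscan3 and -2.59 for Mitf. Among 15 upstream kinases and nutrient sensors 2 were higher and 2 lower. Ddit4, an inhibitor of mTORC1, was at 6.86 to 10.1 CPM in control mice and at 70.0, 44.4 and 173 CPM in ethanol-exposed mice, with replicate 3 far above the others. Its log2 fold change was 3.54 (standard error 0.51, adjusted p = 0.00190), or 2.81 without ethanol replicate 3. The other DEG that was higher was Sesn1 (1.63), a sensor of leucine, at 39.4 and 45.9 CPM in ethanol replicates 1 and 2, 15.4 CPM in replicate 3 and 10.8 to 10.9 CPM in control mice. Sesn1 was no DEG with library size alone (0.98, edgeR adjusted p = 0.0599) or in limma. The lower ones were Prkaa1 (-1.31), a catalytic subunit of AMPK, and Depp1 (-1.47, edgeR adjusted p = 0.0475, and up to 0.129 with a library left out). Depp1 was at 96.8 to 122 CPM in control mice and at 58.0, 46.6 and 12.1 CPM in ethanol-exposed mice. Its log2 fold change was -1.03 without ethanol replicate 3. It was no DEG without ethanol replicate 2, without any 1 of the control mice or with no filter on low counts. Sesn1, Prkaa1, Depp1, Atg2a and Mitf are named after their values were seen. Fnip1, a partner of folliculin, had 0.80 (adjusted p = 0.00206), or 0.13 with library size alone.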

How the data were processed

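For each library the authors deposited a raw count of reads per Ensembl gene and, beside it, an FPKM value. They removed adaptor, low-quality and ambiguous reads before alignment. The aligner, the counting software and its strand setting are not given in the sources used here. The submitters' processing notes list GRCm38 and mm10, but of 27049 gene identifiers shared with GENCODE M21 (GRCm38) only 494 have the same coordinates, so the table's coordinates are printed as they stand and the promoter sequences keep their own build. The table holds 1 further column of counts that matches no sample, and it was not used.

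Counts were tested with edgeR 4.0.16 in R 4.3.3 (filterByExpr, TMM, no covariates, Benjamini-Hochberg over 16717 genes). Standard errors of log2 fold changes had a median of 0.257. Alternatives were other scalings, no filter, removal of the length trend, the replicate number as a block, each library left out, DESeq2 1.42.0, and limma 3.58.1 on log2(FPKM + 1) and log2(FPKM + 0.1) for genes whose mean FPKM reached 1. Pairs of genes were compared by exact permutation tests (SciPy 1.17.1). The tests were checked on simulated counts. The genes named beside the members are the 2 with the smallest adjusted p of each role list and the partners in the pairs. Members and lists were chosen with earlier results of these data known.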

Additional observations from a re-analysis of the deposited data

How the results depend on the processing

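Bnip3 was called higher under all 15 alternatives (log2 fold change 2.12 to 2.93). Median ratio and upper quartile scaling, DESeq2 and no filter on low counts left the same 6 members called, while library size alone and the FPKM fits changed most of those calls. With library size alone, the log2 fold changes were 0.61 for Map1lc3a, 0.62 for Map1lc3b, 0.93 for Ulk1 and 0.49 for Atg14, which were no longer DEGs, -1.38 for Tfeb, which became one, and -0.55 for Sqstm1 and -0.38 for Becn1, which changed sign. Members called were then 3 (1 higher, 2 lower), and genes called in the role lists were 8 higher and 24 lower, where 37.3% of all genes were called. With limma on log2(FPKM + 1), the values were 0.58 for Map1lc3a, 0.54 for Map1lc3b, 0.84 for Ulk1 and 0.38 for Atg14. Those for Sqstm1 and Becn1 were -0.55 and -0.32. There 2 members (1 higher) and 17 genes of the role lists (6 higher) were called, beside 21.0% of all genes. On log2(FPKM + 0.1) the values were 0.61, 0.57, 0.91, 0.45, -0.56 and -0.38, in that order. Called there were 2 members (1 higher) and, in the role lists, 7 genes higher and 19 lower. In that fit 87 genes of the role lists were tested, and all 9608 genes had a median log2 fold change of -0.55. The share of all genes called in it is not available, so its counts cannot be set against that background. Tfeb was below the filter of these limma fits. With the length trend removed Ulk2 was at -0.83, and 5 members were called higher and 0 lower, where 22.9% of all genes were called. With the adjusted p alone 2 members were lower, Ulk2 and Tfeb.

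With each library left out in turn, Bnip3, Ulk1, Map1lc3a and Atg14 were DEGs in every fit, and Map1lc3b and Ulk2 in all but the fit without ethanol replicate 3. The ranges of log2 fold changes were 1.17 to 1.36 for Map1lc3a, 0.99 to 1.48 for Map1lc3b, -0.19 to 0.04 for Gabarapl1, 0.08 to 0.17 for Sqstm1, 1.45 to 1.72 for Ulk1, -1.11 to -0.91 for Ulk2, 0.26 to 0.32 for Becn1, -0.92 to -0.61 for Tfeb and 1.01 to 1.36 for Atg14. Without ethanol replicate 3, Map1lc3b (0.99, edgeR adjusted p = 0.000216) and Ulk2 (-0.91, adjusted p = 0.000106) missed the fold threshold only. The ratio of Map1lc3a to Map1lc3b moved between -0.15 and 0.37 and changed sign without ethanol replicate 1 (-0.15), ethanol replicate 2 (-0.12) or control replicate 3 (-0.03). The other 7 ratios kept their direction, which was fixed in advance because their groups do not overlap. Same-numbered mice did not deviate together (correlations of -0.03487, -0.02114 and -0.01692). With 3 mice per group these correlations cannot exclude a pairing by number. With the replicate block, the members' log2 fold changes were between -1.03 (Ulk2) and 2.83 (Bnip3) and the same 6 members were called. Becn1 then had an edgeR adjusted p of 0.114. The cause of the change without ethanol replicate 3 was not tested.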

Other observations

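The KEGG annotation in the deposited table gives broader lists of the same biology, chosen after the values were seen. Of the 154 genes tested in its animal autophagy pathway, which holds 9 of the 10 members, 22 were called higher and 10 lower (20.8%, edgeR), with a median log2 fold change of 0.15. Of the 97 tested in its mitophagy pathway, which holds 8 members, 13 were higher and 4 lower (17.5%), with a median of 0.29. Of all genes tested 24.2% were called.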
